A study of Homo sapiens with 2 samples.

Results

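A set of 10 human genes was examined in which an internal exon was present in some transcript models and left out of others in both libraries of the study, with a large difference in the balance between them. The 10 genes are CCDC150, RAP1A, CHID1, NFE2L1, MYNN, SPPL2A, PLEKHM2, RNF8, XPO4 and TARBP1, out of 23307 genes with a named model and 1409 genes with an exon seen in both forms in both libraries. They were selected on the size of the inclusion difference between these same libraries, measured in FPKM, so the differences below are a description and carry no test. Poly(A) RNA was sequenced from HCT116, a human colorectal carcinoma cell line that carries a tetracycline-inducible construct against USP49. There was 1 library labelled control and 1 labelled USP49 knockdown. The protocol in the labels states harvest 36 h after doxycycline for both, and no label says whether doxycycline was given to the RNA control. Blasticidin and puromycin were in the medium of both. Nothing in the labels states whether the inducible line is 1 clone.

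A cassette exon is an internal exon that the spliceosome either joins to both neighbours or leaves out with its flanking introns. When its length is a multiple of 3 bases, leaving it out of coding sequence removes residues and keeps the reading frame; otherwise the frame downstream shifts, and a stop codon usually follows soon. USP49 is a ubiquitin-specific protease known to remove ubiquitin from histone H2B, a mark of transcribed chromatin that has been linked to splicing during transcription.

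Exons of 8 of the 10 genes are shown first, because their length and their place in the reading frame set what each form encodes. Each line gives the last 15 bases of the exon before, the switch exon in capitals, and the first 15 bases of the exon after, 5′ to 3′ on the coding strand. Sequences are from GENCODE release 29 transcripts (GRCh38). All 10 exons were found there by the lengths of the exon and of both neighbouring introns, and 8 of the 10 lay in annotated coding sequence. The XPO4 exon stands in a transcript without annotated coding sequence and falls between coding exons of the coding transcript. The RAP1A exon lies in the 5′ UTR and is not printed.
CCDC150: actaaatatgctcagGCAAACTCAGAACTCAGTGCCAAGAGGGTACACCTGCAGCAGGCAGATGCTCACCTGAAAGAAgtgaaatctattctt
NFE2L1: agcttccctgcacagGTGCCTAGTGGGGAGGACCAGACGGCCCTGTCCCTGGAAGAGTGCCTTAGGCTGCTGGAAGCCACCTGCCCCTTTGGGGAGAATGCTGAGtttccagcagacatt
MYNN: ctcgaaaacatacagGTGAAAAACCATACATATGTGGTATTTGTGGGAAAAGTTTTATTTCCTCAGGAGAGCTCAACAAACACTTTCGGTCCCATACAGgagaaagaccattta
SPPL2A: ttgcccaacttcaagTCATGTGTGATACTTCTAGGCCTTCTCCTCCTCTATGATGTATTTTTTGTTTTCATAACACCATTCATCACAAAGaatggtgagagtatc
PLEKHM2: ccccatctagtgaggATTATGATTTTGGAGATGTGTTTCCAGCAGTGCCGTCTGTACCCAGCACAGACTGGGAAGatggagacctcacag
RNF8: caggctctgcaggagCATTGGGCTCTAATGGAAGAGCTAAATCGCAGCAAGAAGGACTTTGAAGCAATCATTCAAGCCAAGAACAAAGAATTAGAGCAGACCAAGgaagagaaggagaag
XPO4: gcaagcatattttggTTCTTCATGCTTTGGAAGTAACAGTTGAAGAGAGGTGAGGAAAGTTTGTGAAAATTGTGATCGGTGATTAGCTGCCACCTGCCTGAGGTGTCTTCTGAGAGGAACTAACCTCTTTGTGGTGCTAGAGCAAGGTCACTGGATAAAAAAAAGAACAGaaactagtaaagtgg
TARBP1: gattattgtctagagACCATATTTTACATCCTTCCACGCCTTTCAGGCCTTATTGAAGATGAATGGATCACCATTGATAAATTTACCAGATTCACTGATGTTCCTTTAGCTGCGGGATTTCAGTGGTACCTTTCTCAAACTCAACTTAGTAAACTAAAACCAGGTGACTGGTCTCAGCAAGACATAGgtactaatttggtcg
Between 60 and 172 bases long, the 10 exons had a median length of 87 bases, against 105 over the 1919 exons seen in both forms in both libraries. Lengths were a multiple of 3 for 7 of the 10 exons, against 57.5% of those 1919. Of the 8 exons in annotated coding sequence, leaving out these 7 kept the frame and removed 20 to 30 residues, and leaving out that of TARBP1 shifted it. The XPO4 exon, placed into the coding transcript, brought a stop within the exon itself, before its length could shift the frame.

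Inclusion was taken as the level of the models that hold the exon, in percent of the level of these models plus those whose intron spans the whole exon. Levels are FPKM, the number of fragments divided by model length and by the depth of the library. The interval of an inclusion value sets the deposited lower bound of one form against the upper bound of the other. Each group is 1 library, so nothing here could be set against a spread between replicates, and p-values were not calculated.

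The control library held 16358284 recovered fragments and the other 19939188. USP49, the targeted gene, had a summed level of 2.89 FPKM in control (2.23 to 3.54) against 1.11 in the knockdown-labelled library (0.839 to 1.37). Control carried these fragments on 2 assembled models that reach past the RefSeq model, itself at 0 there, while the other library carried 69 fragments on the RefSeq model. The values thus rest on different bases, and the label is used below as a name, not as a measured loss. Of 6 epithelial markers, EPCAM, KRT8, KRT18, KRT19 and CDH1 stood above 1 FPKM in both libraries and VIL1 was listed at 0 in both. The 11 blood, fibroblast and endothelial markers summed to 10.8 FPKM in control and 8.08 in the knockdown-labelled library, of which COL1A1 held 10.5 and 7.78. PTPRC, DCN and CDH5 were listed at 0 in both.

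The 10 exons divided into 6 with lower and 4 with higher inclusion in the knockdown-labelled library. Control inclusion was 70.0% to 82.3% in the first set, and 13.6% to 23.5% in the second. The other library had 11.9% to 33.0% in the first and 74.4% to 79.96% in the second. Differences ran from 49.3 to 64.8 percentage points in size, and the intervals of the libraries did not overlap for any of the 10.

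**Figure D1:**
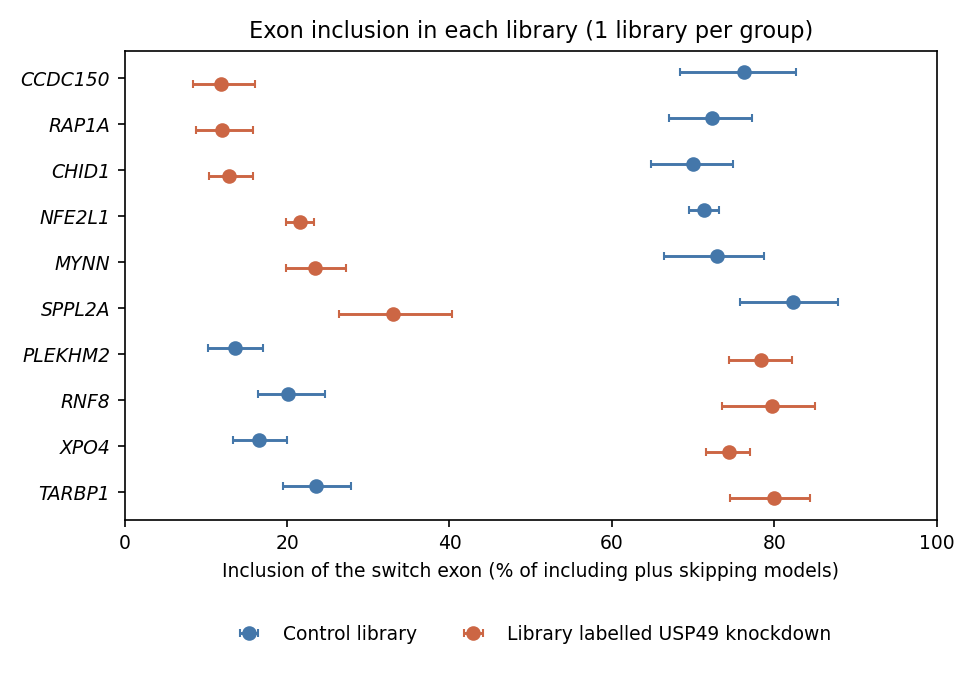
Inclusion of the switch exon in percent (horizontal axis) for each gene, with control in blue, the knockdown-labelled library in orange, and bars from the lower to the upper bound. CCDC150 to SPPL2A have control at 70.0% or above and the other library at 33.0% or below, and PLEKHM2 to TARBP1 have the reverse order.

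Among the 1919 exons seen in both forms, 313 differed by 20 points or more with intervals apart, which is 16.3%. Of these, 150 were lower in the knockdown-labelled library (7.82% of exons scanned) and 163 higher (8.49%). The median size of the difference was 7.81 points over all scanned exons. Ranked by the largest difference in each of the 1409 genes, the members held places between 5 (PLEKHM2) and 39 (SPPL2A). The gene next below SPPL2A, UNC13A, had 30.7% in control and 79.7% in the other library, a difference of 48.9 points against 49.3 for SPPL2A. A further 29 genes outside the set had a difference at or above that of SPPL2A. The 5 largest of those were GPRASP3 (14.8% and 87.7%), DNAL1 (13.6% and 81.4%), LHX6 (86.2% and 19.8%), CACNB1 (78.1% and 13.02%) and NEK5 (70.6% and 12.4%), each given as control and then knockdown. Values near either end of the scale were rare in the scan, which by its rule took only exons with both forms above 0 in both libraries. Inclusion was under 10% in 19 and above 90% in 10 of 3838 values, between 4.66% and 93.9%.

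**Figure D2:**
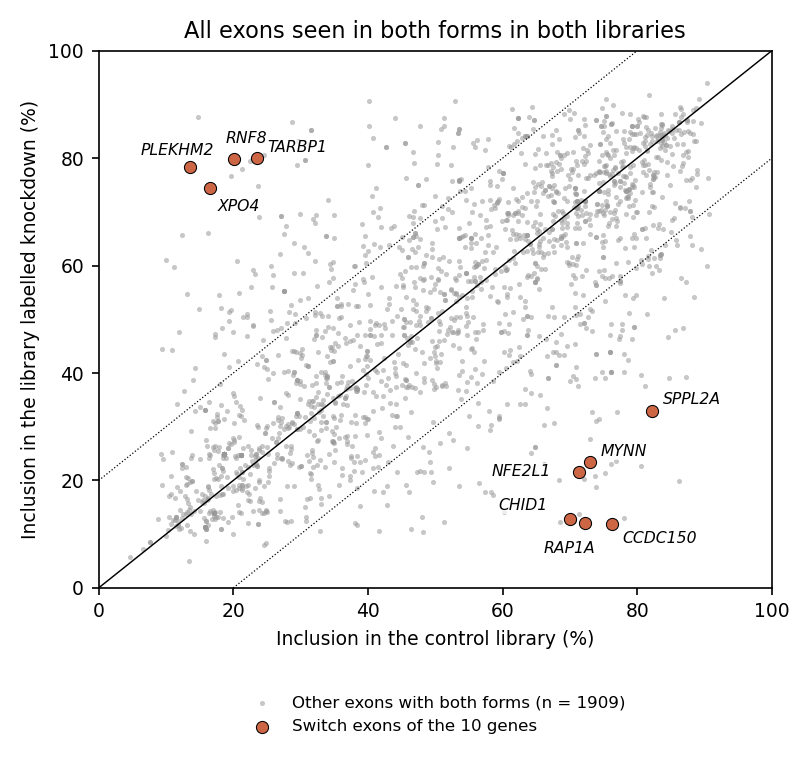
Inclusion in the control library (horizontal axis, %) against the knockdown-labelled library (vertical axis, %) for every exon seen in both forms in both libraries, with the 10 switch exons in orange. The solid line marks equal inclusion and the dotted lines 20 points, which 313 of 1919 exons passed with intervals apart.

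NFE2L1, a regulator of transcription, was the most highly expressed of all 10. Its protein is held at the endoplasmic reticulum and raises proteasome genes when proteasome activity is short. Its switch exon is exon 4 of 6 in the RefSeq model NM_003204, 90 bases at chr17:43489393-43489482 on the plus strand (hg18). In control the including form, the RefSeq model, stood at 57.5 FPKM from 4544 fragments, and the skipping form, an assembled model, at 23.1 FPKM from 2047. Knockdown-labelled RNA had 15.4 FPKM of an assembled including model from 1478 fragments and 55.9 FPKM of a skipping one from 5395. Inclusion was 71.4% (69.5 to 73.2) in control and 21.6% (19.9 to 23.3) in the other library, the narrowest intervals among the 10. The forms also differed in start, and the starts changed places between libraries. In control the including model began at 43480685 and the skipping one at 43481154. In the knockdown-labelled library the skipping model began at 43480679 and the including one at 43481160. The part that the joining of starts to the exon plays in this difference was not tested. Removing the exon took the reading frame from 772 to 742 residues, without residues 242 to 271. The long form is known as TCF11, and the form without these residues as NRF1. GENCODE holds 9 transcripts that join the neighbours of this exon directly, all 9 protein-coding. Listed at 0 in the knockdown-labelled library, the RefSeq model was nonetheless marked there as covered by reads over all its introns and internal exons.

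MYNN encodes a zinc finger protein with a BTB domain. The switch exon, exon 6 of 8 in NM_018657, has 84 bases at chr3:170983959-170984042 on the plus strand. Control held 7.89 FPKM of including models (616 fragments) and 2.92 FPKM of a skipping one (227 fragments). Labelled knockdown, the other library held 4.54 FPKM of the RefSeq model NM_001185118, which includes it (482 fragments), and 14.9 FPKM of a skipping model (507 fragments). Inclusion was 73.0% (66.4 to 78.8) and 23.4% (19.9 to 27.2). Here the skipping models differed in length, with 4784 bases in control and 1757 in the knockdown-labelled library. Counted in fragments, not divided by length, inclusion was 73.1% and 48.7%, and the difference moved from −49.6 to −24.4 points. A search of the reading frame for the pattern of paired cysteines and histidines of a C2H2 finger, at one fixed spacing, found 7 with the exon and 6 without it. Without the exon the frame gave 582 residues in place of 610. No GENCODE transcript of MYNN joined the neighbours of the exon directly, nor did a RefSeq model skip it.

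RNF8 encodes a ubiquitin ligase that marks histones beside DNA double-strand breaks and so brings repair factors to them. Its exon 5 of 8 in NM_003958, of 90 bases at chr6:37450374-37450463 on the plus strand, was on the higher side in the knockdown-labelled library. Control held 4.76 FPKM of the including RefSeq model (434 fragments) against 18.8 FPKM on 2 skipping models (548 fragments). Labelled knockdown, the other library held 21.4 FPKM on 3 including models (919 fragments) and 5.42 FPKM on 1 skipping model (160 fragments). Inclusion was 20.2% (16.4 to 24.7) and 79.8% (73.6 to 85.1). The RefSeq model is 5631 bases long and the assembled models 1360 to 1947 bases, so inclusion in fragments was 44.2% and 85.2%, a difference of 40.9 points. Skipping removed residues 347 to 376 and left 455 of 485. The skipped stretch lies between the FHA domain, which binds phosphorylated proteins, and the RING domain, which binds the ubiquitin-conjugating enzyme.

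**Figure D3:**
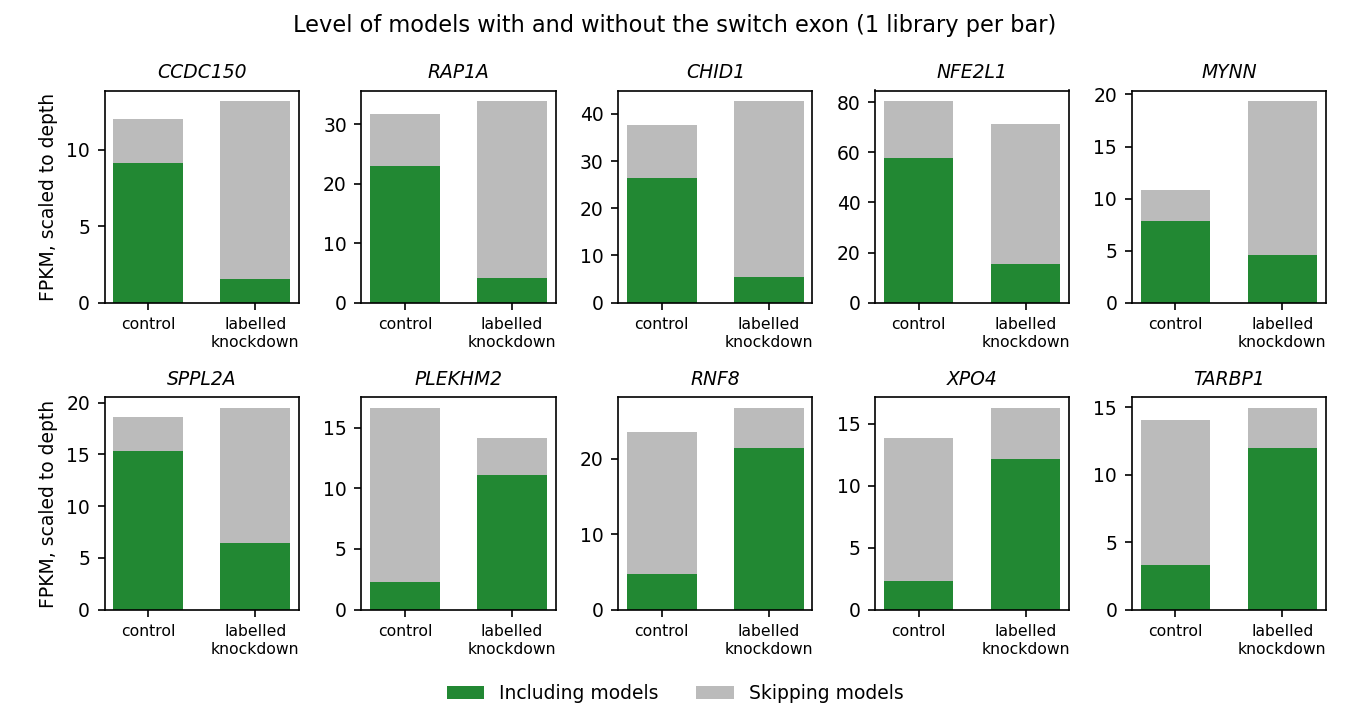
Depth-scaled FPKM (vertical axis, its range set for each gene) of models that include the switch exon (green) and models that skip it (grey), 1 library per bar. The bar of NFE2L1 in control reaches 80.6 FPKM, of which 57.5 include the exon, and the bar labelled knockdown 71.3, of which 15.4 include it.

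RAP1A, a small GTPase of the Ras family that acts in cell adhesion, was the member whose switch exon lay before the coding sequence. The exon, exon 2 of 9 in NM_001010935, has 94 bases at chr1:111971615-111971708 on the plus strand, after an intron of 7535 bases and before one of 63770 bases. Including models stood at 22.9 FPKM in control (497 fragments) and 4.08 in the knockdown-labelled library (151 fragments). Skipping models had 8.79 FPKM (254 fragments) and 29.9 FPKM (764 fragments). Inclusion was thus 72.3% (67.1 to 77.2) against 12.02% (8.80 to 15.8). RAP1A was the only gene of the 10 in which the introns of including and skipping models all matched between libraries. The ends of the models still differed. An assembled model with an earlier 3′ end than the RefSeq models held the exon in control, at 22.9 FPKM. In the other library the assembled model of that kind skipped it, also at 22.9 FPKM. In fragments the values were 66.2% and 16.5%. The coding sequence is the same in both forms, as the exon is in the 5′ UTR.

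Among the members that serve transport and membranes, PLEKHM2, also called SKIP, ties lysosomes to the kinesin motor through the GTPase ARL8, and had the widest difference of the 10. Exon 7 of 20 in NM_015164, of 60 bases at chr1:15920411-15920470 on the plus strand, was in the RefSeq model and absent from 1 assembled model in each library. The including model stood at 2.27 FPKM in control (151 fragments) and 11.1 in the knockdown-labelled library (899 fragments). The skipping model stood at 14.4 FPKM (946 fragments) and 3.06 FPKM (278 fragments). Inclusion was 13.6% (10.3 to 17.1) and 78.3% (74.4 to 82.1), and in fragments 13.8% and 76.4%. Both skipping models were close to the including one in length, at 4062 and 4601 bases against 4122, but had 19 and 18 exons. The file marked all 4 of these models as covered by reads over all their introns and internal exons. Skipping gave 999 residues in place of 1019, and 1 protein-coding GENCODE transcript joins the neighbours of the exon.

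SPPL2A is an aspartyl protease that cuts other proteins within the membrane. Exon 10 of 15 in NM_032802 has 75 bases at chr15:48810454-48810528 on the minus strand. Control held 15.3 FPKM of including models (507 fragments) and 3.30 FPKM of a skipping one (106 fragments). The knockdown-labelled library had 6.45 FPKM of the including RefSeq model (251 fragments) and 13.1 FPKM on 2 skipping models (521 fragments). Inclusion was 82.3% (75.8 to 87.8) against 33.0% (26.4 to 40.3), and 82.7% against 32.6% in fragments. The skipping models were not alike: the control one left out the next exon downstream as well, while both in the other library left out this exon alone. Residues 339 to 363 are lost without the exon, which leaves 495 of 520. They hold 1 tyrosine-aspartate pair, the pattern in which proteases of this family carry one of the aspartates of the active site. No GENCODE transcript of SPPL2A joined the neighbours directly.

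XPO4, exportin 4, carries proteins such as the translation factor eIF5A out of the nucleus. Its switch exon was the only 1 of the 10 in no RefSeq model of the files: 155 bases at chr13:20335108-20335262 on the minus strand, between exons 2 and 3 of NM_022459. The exon stands in a GENCODE transcript that has no annotated coding sequence. Including models had 2.29 FPKM in control (293 fragments) and 12.1 FPKM in the knockdown-labelled library (1972 fragments). Skipping models had 11.6 FPKM (1555 fragments) and 4.18 FPKM (820 fragments). Inclusion was 16.5% (13.3 to 20.001) against 74.4% (71.6 to 77.0), and in fragments 15.8% against 70.6%. Placed between the same neighbours of the coding transcript, the exon is reached after residue 58. The frame, not yet shifted, meets a stop 35 bases into the exon. The frame then gave 70 residues in place of 1151, with the stop 3200 bases before the last exon junction. The stop is in capitals here, within the exon printed above.
XPO4 stop: gttgaagagaggTGAggaaagtttgtg
A stop codon far upstream of the last junction is the known signal for nonsense-mediated decay. The summed level of all XPO4 models was 21.2 FPKM in control and 21.8 in the knockdown-labelled library. Each sum holds a model of 9 exons that neither includes nor skips the exon, at 7.37 FPKM in control and 5.46 in the other library.

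TARBP1 is a methyltransferase of transfer RNA with its catalytic domain at the C-terminal end. Its switch exon, exon 26 of 30 in NM_005646, has 172 bases at chr1:232600751-232600922 on the minus strand. Control held 3.31 FPKM of an including model (283 fragments) and 10.8 FPKM of a skipping one (443 fragments). The other library held 11.99 FPKM on 3 including models (757 fragments) and 3.01 FPKM of a skipping one (261 fragments). Inclusion was 23.5% (19.5 to 27.9) and 79.96% (74.6 to 84.4). The control skipping model had 6 exons at the 3′ end of the gene, in 2563 bases, while the skipping model labelled knockdown had 26 exons. In fragments inclusion was 39.0% and 74.4%, a difference of 35.4 points. Leaving the exon out shifted the frame after residue 1357, with a stop 29 codons later, shown in capitals.
TARBP1 stop: gtgtttccgactTAGacctggagctcc
The frame without the exon gave 1386 residues in place of 1621 and ended 364 bases before the last junction. Neither skipping model reaches the 5′ end of NM_005646, so their own reading frames are not known. The same holds for the including models of 7 and 8 exons in the knockdown-labelled library. These stood at 4.86 and 4.54 of the 11.99 FPKM.

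CHID1 encodes a secreted chitinase-like protein that binds the receptor stabilin-1. Its 75-base exon at chr11:893704-893778 on the minus strand is exon 3 of 14 in NM_001142676, which was at 0 in both libraries. The exon was carried by 1 assembled model in each, at 26.4 FPKM in control (492 fragments) and 5.52 FPKM in the knockdown-labelled library (294 fragments). Skipping models had 11.3 FPKM (620 fragments) and 37.3 FPKM (1155 fragments). Inclusion was 70.0% (64.8 to 74.9) and 12.9% (10.4 to 15.8). The including models were 1186 and 2712 bases long, and the RefSeq models that skip the exon 3324 and 3428 bases. Most of the skipping level in the knockdown-labelled library, 32.1 of 37.3 FPKM and 810 of 1155 fragments, was on an assembled model of 1313 bases that lacks the first exon of these RefSeq models. In fragments, inclusion was 44.2% and 20.3%, a difference of −23.95 points, the smallest in size of the 10 on that scale. A run of 25 bases of this exon was also found in GENCODE transcripts of 275 other genes, against 1 for SPPL2A and 0 for the other members, and whether its levels hold reads from elsewhere was not tested. Removal kept the frame, at 393 residues in place of 418. GENCODE holds 11 transcripts that join the neighbours, 9 of them protein-coding.

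CCDC150 encodes a coiled-coil protein of little known function. Exon 17 of 28 in NM_001080539 has 63 bases at chr2:197285646-197285708 on the plus strand. Including models, 3 in number, had 9.16 FPKM in control (477 fragments), where the RefSeq model was at 0. In the knockdown-labelled library only the RefSeq model included the exon, at 1.57 FPKM (114 fragments). The skipping form had 2.85 FPKM (168 fragments) on 1 model and 11.6 FPKM (778 fragments) on 2. Inclusion was 76.3% (68.3 to 82.7) and 11.9% (8.36 to 16.0), and in fragments 74.0% and 12.8%. The frame without the exon had 1080 residues in place of 1101. A further exon of 164 bases in this gene went the other way, at 23.7% in control and 74.9% in the knockdown-labelled library. In control it was held by the assembled model that skips the 63-base exon, and in the knockdown-labelled library by the RefSeq model and 1 of the 2 skipping models.

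**Figure D4:**
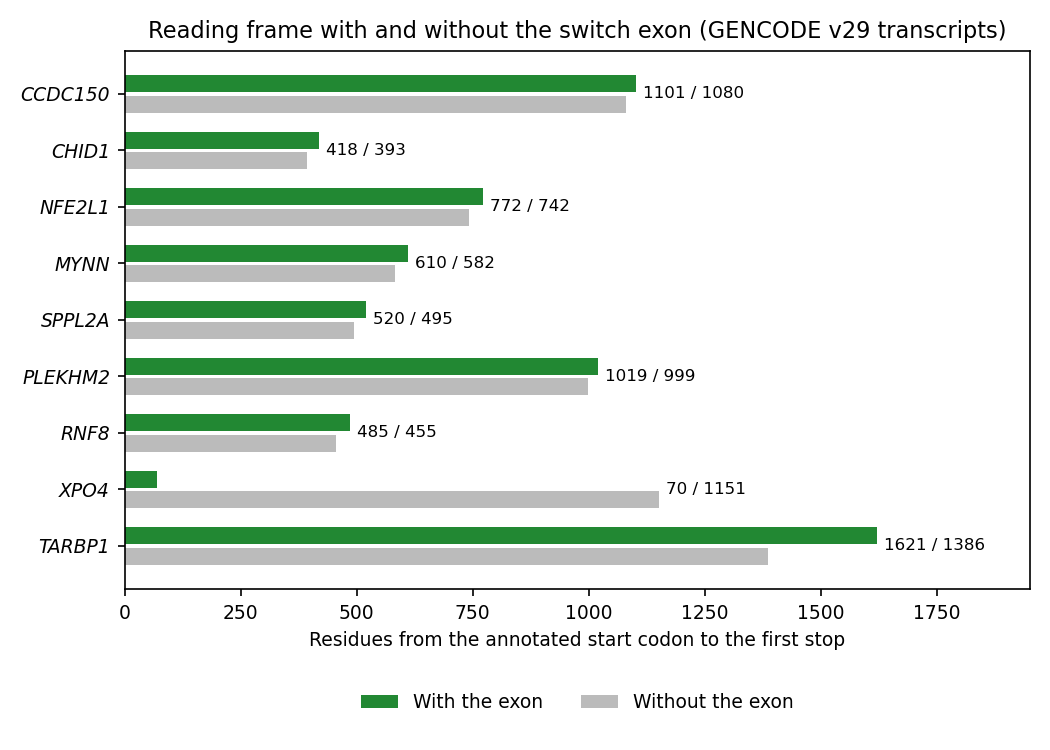
Residues from the annotated start codon to the first stop (horizontal axis) for the 9 genes whose switch exon lies in coding sequence or, for XPO4, between coding exons, with the exon (green) and without it (grey), in GENCODE transcripts changed at this exon alone. The bars differ by 20 to 30 residues in 7 genes, while XPO4 has 70 with the exon against 1151 and TARBP1 1386 without it against 1621.

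The exon was rarely the only difference between the models compared. Across the 10 genes, 22 exons were seen in both forms in both libraries, and 13 of the 22 passed 20 points with intervals apart. Those 13 hold all 10 switch exons, which were selected for this difference. The others were the 164-base exon of CCDC150 and the 118-base and 131-base exons of XPO4, which share models. Over the scan, 16.3% of 1919 exons passed. Only RAP1A, NFE2L1 and PLEKHM2 had a single exon seen in both forms. In XPO4, exons of 118 and 131 bases stood at 47.4% in control and 74.9% in the knockdown-labelled library, and one of 93 bases at 58.2% and 74.9%. In CCDC150, exons of 117 and 130 bases stood at 23.7% and 11.9%, and one of 69 bases at 59.2% and 74.9%. Other differences were those of the 160-base exon of RNF8 (51.6% and 37.6%), the 67-base exon of MYNN (37.98% and 23.4%), the 54-base exon of SPPL2A (29.1% and 19.0%) and the 96-base exon of TARBP1 (23.5% and 30.3%). The 104-base exon of CHID1 was at 20.6% and 21.2%. In the knockdown-labelled library that value leaves out the assembled model of 1313 bases, with 810 fragments. That model begins within the exon and was counted in neither form. Exons of 1 gene share models and so are not separate measurements.

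An including model whose introns matched between the libraries was present for 4 of the 10 genes and a skipping one for 3, and RAP1A was the only gene with both. Over the scan, 536 exons had including and skipping models whose introns all matched, and 40 of them (7.46%) passed 20 points with intervals apart. Where the introns of the models differed, 273 of 1383 did (19.7%). The median size of the difference was 5.11 points in the former and 9.36 in the latter. The part that the choice of models plays in the 10 differences was not tested. Of 83 listings of models of these genes over both libraries, 23 were at 0, and 7 of those 23 carried the file's mark of full read cover, against 36 of 60 above 0.

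Division by model length moved 5 of the 10 differences beyond their interval. Counted in fragments, RAP1A, CHID1, MYNN, RNF8 and TARBP1 had smaller differences, of −49.7, −23.95, −24.4, 40.9 and 35.4 points in that order. The other 5 stayed within their intervals, and all 10 kept their direction and passed 20 points.

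**Figure D5:**
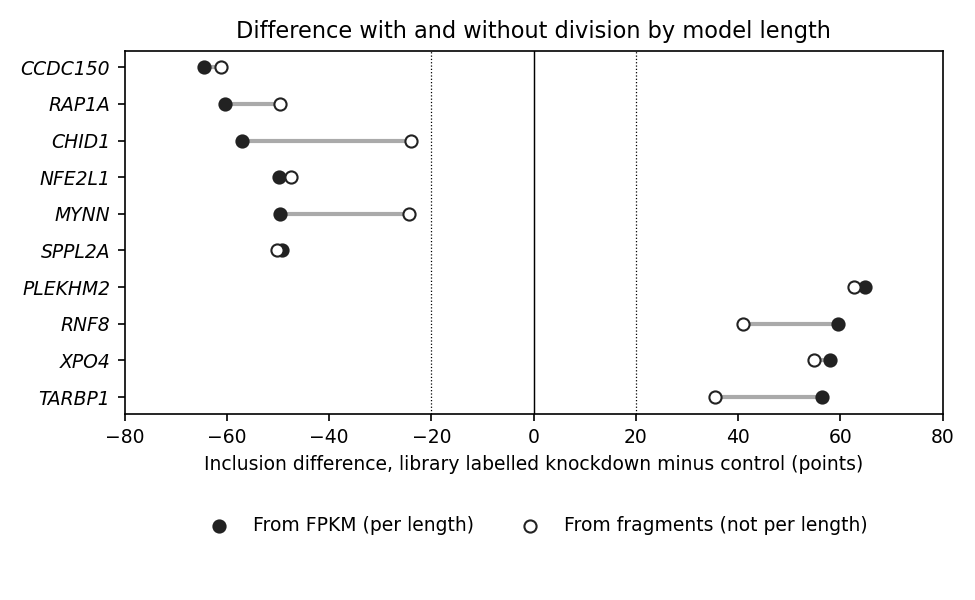
Inclusion difference in percentage points, knockdown-labelled library minus control (horizontal axis), from FPKM (filled) and from fragments not divided by model length (open), with dotted lines at 20 points either way. CHID1 moves from −57.1 to −23.95 and MYNN from −49.6 to −24.4, while SPPL2A moves from −49.3 to −50.1.

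Gene levels, on which the genes were not selected, are given as log2 ratios, a scale unlike that of inclusion. Summed over all models and with a pseudocount of 1 FPKM, the log2 ratio of the knockdown-labelled library over control lay between −0.25 (TARBP1) and 0.79 (MYNN), above 0 in 7 genes and below in 3, with a median of 0.08. The median was −0.0020 over the 11637 genes averaging at least 1 FPKM. None of the 10 passed 2-fold, which 3.42% of those genes did. MYNN stood at 10.8 FPKM in control (9.20 to 12.4) and 19.4 in the knockdown-labelled library (17.5 to 21.3), and RNF8 at 23.6 (20.3 to 26.9) and 33.2 (27.7 to 38.7), with intervals apart in both. NFE2L1 was at 80.6 FPKM (77.4 to 83.9) and 71.3 (68.6 to 74.1), also apart. The other 7 genes had overlapping intervals. Counted as fragments per depth, the 10 ratios narrowed to between −0.26 and 0.18, with MYNN at −0.056 and RNF8 at 0.054. By that count MYNN lay on the other side of 0, and RAP1A moved from 0.10 to −0.00062.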

How the data were processed

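Poly(A) RNA of 2 HCT116 samples, 1 per group, was sequenced by a protocol without a strand-marking step, per the labels' protocols. The authors deposited a Cufflinks transcript assembly per library, guided by RefSeq, in which each model carries FPKM with bounds, per the file headers and columns. Alignment tools (TopHat and Bowtie), file tools (SAMtools, Picard, bedtools), Cufflinks and build hg18 are listed per the submitters' processing notes, without versions. Coordinates are 1-based hg18.

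The deposited FPKM proved not divided by depth. In loci with 1 model, the bounds taken as 2 Poisson SD gave a whole fragment number, within 0.02, for 94.5% of 16923 loci in control and 94.2% of 18293 in the other library. Fragments of RefSeq and spliced models were then recovered as proportional to FPKM times length less 47 bases. That relation held for 92.0% of 3860 such loci with 1 model in control and 91.5% of 3923 in the other library. Unspliced assembled models alone in a locus took their number from the bounds where these were above 0. Otherwise they took a median length correction of 246 bases in control and 252 in the other library. FPKM was scaled to the total of recovered fragments. Inclusion is a share within a library and needs no scaling. Intervals cover what the deposited bounds cover, counting error above all; PCR copies are not independent molecules.

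RefSeq models were named by accession (GRCh38.p14 table, for names only), and assembled models by an exact intron on the same strand shared with RefSeq models of 1 symbol. The exon of a gene was the one with the largest difference. Exons needed 20 fragments on both forms together in each library. The members and lists were chosen with earlier results of these data known. The named genes are the 10 members, USP49, the 5 other genes with the largest differences, and UNC13A, added as the nearest gene below the members. Markers were a fixed list of epithelial, blood, fibroblast and endothelial genes. The sequence of 1 exon and the value of 1 marker are not reported here. The scan was tested on simulated counts, with 1 including and 1 skipping model given for each exon and library. That test could not show errors of the assembly. Python 3.11.15 was used. The frame was read in GENCODE transcripts changed at the switch exon alone. Alternatives varied length division, model choice, exon matching, fragment minimum, pseudocount and depth scaling.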

Additional observations from a re-analysis of the deposited data

How the results depend on the processing

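All 10 members kept the direction of their inclusion difference under every alternative that gave a value for them. Counting in fragments was the only alternative that changed any of these values. RefSeq models alone gave none for any member, since no member had both forms above 0 in both libraries on RefSeq models. When the skipping intron had to join both neighbours, 9 members kept a value and all 9 passed 20 points; SPPL2A had none. Models marked as covered by reads, an alternative chosen after seeing the data, left 3 members, NFE2L1, PLEKHM2 and RNF8. All including and skipping models of these 3 carried the mark, so their values, all past 20 points, could not change. Over the scan, the 313 exons past 20 points became 95 of 872 (10.9%) on RefSeq models alone and 40 of 536 where introns matched, also chosen after seeing the data; fewer exons could enter both. The gene level ratio changed sign without depth scaling in NFE2L1 (0.11), PLEKHM2 (0.044) and TARBP1 (0.019), and as fragments per depth in RAP1A (−0.00062) and MYNN (−0.056). No paired analysis was possible because each group has 1 library. No replicate could be left out. With 1 library per group, differences between cultures and differences of treatment cannot be told apart.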
